A study of Mus musculus with 6 samples.

Results

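The granins and the prohormone processing genes were followed as a set of 10 genes, Chga, Chgb, Scg2, Scg3, Scg5, Cpe, Pcsk1, Pcsk2, Pcsk1n and Vgf, of 52542 gene rows in the count tables. They were listed by name and not by any measured value, and all 10 had UMIs (unique molecular identifiers, each standing for 1 captured transcript). Islets of Langerhans came from male Sox9-CreER; tdTomato mice, in which tamoxifen switches on Cre where Sox9, known in the adult pancreas for its activity in ducts, is expressed, and so marks those cells and their descendants with tomato. All mice received 8 mg of tamoxifen over 2 weeks from 10 weeks of age and an operation at 12 weeks, either a partial pancreatectomy (ppx), which removes part of the pancreas, or a sham operation, and islets were taken 4 weeks later. Sorted cells were sequenced by MARS-seq, which counts the 3′ ends of transcripts, on 3 ppx and 3 sham plates of 384 wells each. Replicate 1 of each operation was sorted tomato-positive, sham replicate 2 held positive wells in its first rows and negative ones elsewhere, and ppx replicates 2 and 3 and sham replicate 3 were tomato-negative.

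Granins are acidic proteins of the dense-core secretory granule, where they help to pack peptide hormones and are themselves cut into peptides. In the same granule, the convertases encoded by Pcsk1 and Pcsk2 cut prohormones after pairs of basic residues, and carboxypeptidase E, encoded by Cpe, then trims those residues off. In islets, proinsulin is cut by both convertases, while proglucagon is turned into glucagon by the Pcsk2 product.

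Wells were classed by hormone transcripts alone, with thresholds of 7.04% of UMIs for Ppy, 2.68% for Gcg, 1.53% for Sst and 3.30% for Ins1 and Ins2 summed. Of 2304 wells, 2115 passed the filters, and these held 79 Ppy-high, 144 glucagon-only, 489 somatostatin-only and 1037 insulin-only wells, besides 133 joined wells high in both insulin and somatostatin. Of the 79 Ppy-high wells, 15 were also above the Gcg threshold. The plates held between 1250861 and 1508513 UMIs, and no well name was shared between plates. The median well held 3691 UMIs in the Ppy-high class, 3403 in the glucagon-only class, 1539 in the somatostatin-only class and 4305 in the insulin-only class. Sums of markers that the classes did not use followed the labels. The 6 beta markers summed to 5.44 to 7.99% of UMIs on insulin-only plates. The 7 alpha markers summed to 2.16 to 3.25% on glucagon-only plates, and the 5 delta markers to 0.522 to 0.585% on somatostatin-only plates. Single genes carried much of these sums: over all plates, Rbp4 was 0.475% in somatostatin-only wells. Iapp was 6.52% in insulin-only and 1.74% in somatostatin-only wells. Not every delta marker followed the label. Lepr had no UMI in somatostatin-only wells, and Pdyn averaged 0.0099% there, against 0.0190% in insulin-only wells. The plate was the replicate. Comparisons between classes had the plate as a block, so their p-values measure how differences within a plate vary from plate to plate. Between operations, p-values measure the spread between plates. Since the labels do not tie plates to animals, either spread may be technical. Somatostatin-only wells numbered 199, 8 and 9 on ppx plates 1 to 3, against 201, 54 and 18 on the sham plates, so that only ppx plate 1 and the 3 sham plates passed the minimum of 10 wells for that class.

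RefSeq (GRCm38.p6) gave a promoter, from 250 bases before to 50 bases after the start site, for 8 of the 10 genes, all but Cpe and Vgf. The promoters of 3 granins and both convertases are shown because the results below turn on these 5 genes. The motif searched was TGACGTCA, the cAMP response element, which reads the same on both strands. Capitals mark it in Chgb, Scg2 and Pcsk1, the related form TGACGTAA, searched on both strands, in Chga, and only the core TGACG or CGTCA in Pcsk2.
Chga promoter, chr12:102554691-102554990, plus strand: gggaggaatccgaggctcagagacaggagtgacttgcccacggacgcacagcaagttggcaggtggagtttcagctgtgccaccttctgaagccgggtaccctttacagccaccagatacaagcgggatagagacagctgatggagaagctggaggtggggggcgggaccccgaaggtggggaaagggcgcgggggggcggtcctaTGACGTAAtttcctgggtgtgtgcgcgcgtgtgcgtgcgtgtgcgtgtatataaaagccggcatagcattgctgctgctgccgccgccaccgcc
Chgb promoter, chr2:132781392-132781691, plus strand: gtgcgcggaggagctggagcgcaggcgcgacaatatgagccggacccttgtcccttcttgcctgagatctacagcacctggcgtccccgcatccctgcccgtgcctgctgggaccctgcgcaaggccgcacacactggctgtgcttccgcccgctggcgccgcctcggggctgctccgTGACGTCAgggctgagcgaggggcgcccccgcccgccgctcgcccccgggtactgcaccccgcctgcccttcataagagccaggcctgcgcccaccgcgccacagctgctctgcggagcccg
Scg2 promoter, chr1:79439977-79440276, minus strand: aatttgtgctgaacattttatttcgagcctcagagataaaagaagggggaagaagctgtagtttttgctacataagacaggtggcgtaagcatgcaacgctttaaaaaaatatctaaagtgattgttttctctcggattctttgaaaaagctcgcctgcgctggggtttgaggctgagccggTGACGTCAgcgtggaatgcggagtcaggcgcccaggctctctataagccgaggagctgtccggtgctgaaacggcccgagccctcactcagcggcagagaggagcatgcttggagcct
Pcsk1 promoter, chr13:75089607-75089906, plus strand: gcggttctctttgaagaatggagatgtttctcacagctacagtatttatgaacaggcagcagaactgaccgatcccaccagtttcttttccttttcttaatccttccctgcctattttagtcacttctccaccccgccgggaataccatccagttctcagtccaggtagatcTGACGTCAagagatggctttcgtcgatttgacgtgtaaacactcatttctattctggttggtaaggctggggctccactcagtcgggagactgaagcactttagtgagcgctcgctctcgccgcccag
Pcsk2 promoter, chr2:143545883-143546182, plus strand: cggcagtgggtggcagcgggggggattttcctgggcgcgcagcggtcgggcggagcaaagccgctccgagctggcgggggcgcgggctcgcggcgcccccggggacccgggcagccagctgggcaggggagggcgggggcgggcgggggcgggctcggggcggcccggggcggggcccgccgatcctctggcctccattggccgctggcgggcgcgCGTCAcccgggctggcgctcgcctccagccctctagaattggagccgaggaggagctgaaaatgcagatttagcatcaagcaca
The full motif began 72 bases before the start site in Chgb, 68 before it in Scg2 and 78 before it in Pcsk1. It lay in 3 of the 8 promoters, against 1.79% of all 32851 promoters of the same length, and TGACGTAA lay in 0.499% of them. The core alone, which the longer forms contain, was found in 20.8%. These matches describe the letters in the window and were not measured as sites of binding.

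Levels are given as percent of a class's UMIs on a plate. They are 3′ counts and were not divided by gene length. Among the granins, Chga was highest in insulin-only wells, Chgb in somatostatin-only wells and Scg2 in insulin-only wells with somatostatin-only wells next, as the plot of levels by class shows. In the fit of plate sums, 8 of the 9 genes that passed the filter on low counts were called (adjusted p under 0.05) between glucagon-only and insulin-only wells, where 48.4% of all 1799 genes tested were called. Between somatostatin-only and insulin-only wells the count was 6 of 9 against 40.0% of all genes, and between Ppy-high and insulin-only wells it was 7 of 9 against 34.7%. Vgf did not pass that filter. Without the filter the median log2 fold change of all genes was -0.57 in Ppy-high and -0.35 in glucagon-only wells over insulin-only wells, against -0.04 and -0.08 with it, and the members called in Ppy-high wells were then 0 higher and 7 lower, against 3 higher and 4 lower with it. The classes differed so widely that the shares called among the members are read against these backgrounds, and the sizes below carry more than the counts.

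**Figure D1:**
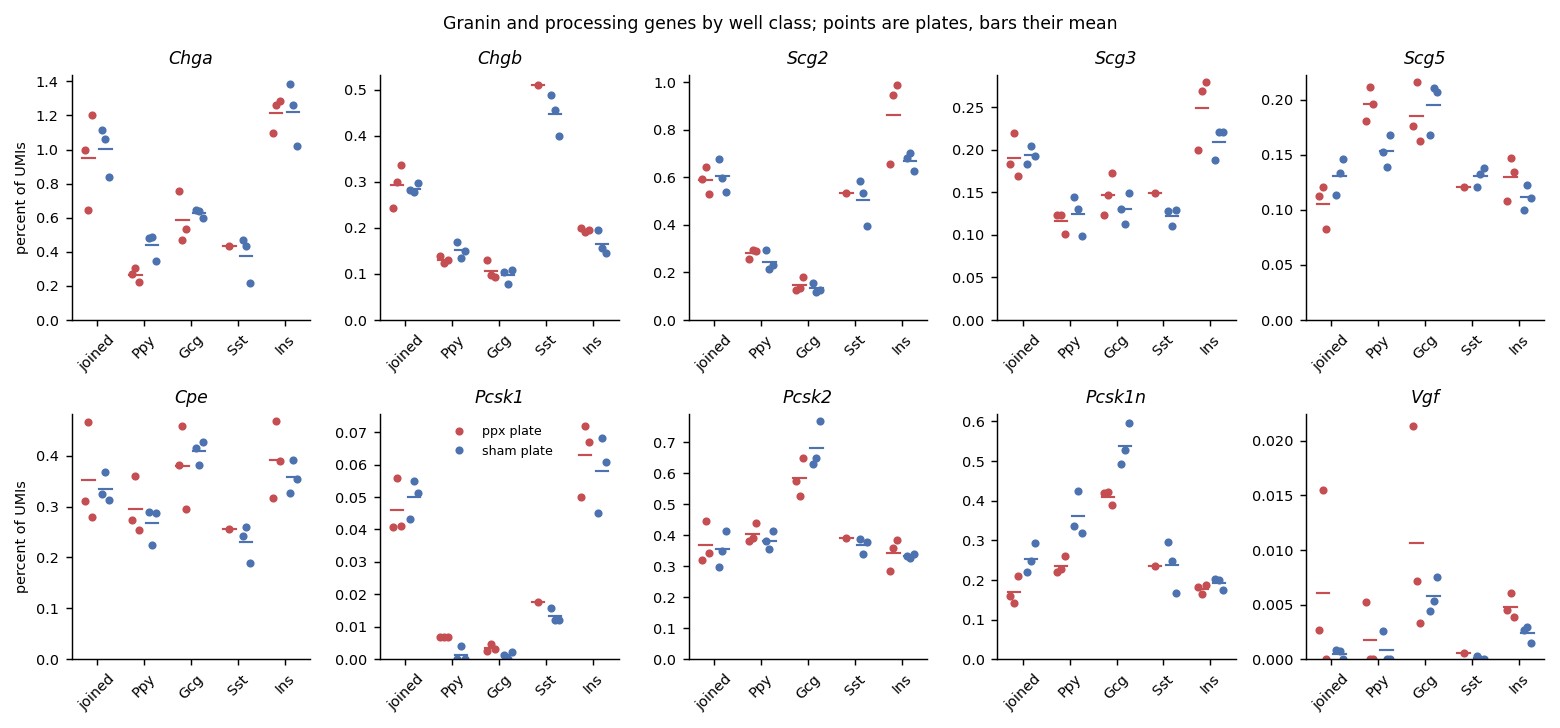
Percent of UMIs (vertical axis, from 0) for each of the 10 genes in joined, Ppy-high (Ppy), glucagon-only (Gcg), somatostatin-only (Sst) and insulin-only (Ins) wells. Each point is a plate (ppx red, sham blue), bars are means over plates, and plates with too few wells of a class are not drawn. Pcsk1 stands at 0.045% or more on all 6 insulin-only plates and at 0.018% or less on every plate of the Ppy-high, glucagon-only and somatostatin-only classes.

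Chga, which encodes chromogranin A, a driver of granule formation, had its lowest, median and highest plate at 0.222%, 0.325% and 0.487% in Ppy-high wells. In glucagon-only wells these were 0.471%, 0.618% and 0.757%, and in somatostatin-only wells 0.220%, 0.433% and 0.471%. In insulin-only wells they were 1.02%, 1.26% and 1.38%, so that every plate of the other classes lay below every insulin-only plate. The log2 fold change over insulin-only wells was -1.64 ± 0.16 (SE) in Ppy-high wells (adjusted p = 3.46e-11). It was -0.98 ± 0.16 in glucagon-only wells (adjusted p = 1.16e-06) and -1.92 ± 0.19 in somatostatin-only wells (adjusted p = 4.76e-11). Among the other 3 classes, Chga was higher in glucagon-only than in somatostatin-only wells (0.94 ± 0.18, adjusted p = 0.000106), lower in Ppy-high than in glucagon-only wells (-0.66 ± 0.16, adjusted p = 0.0045) and not called between Ppy-high and somatostatin-only wells (0.28 ± 0.18, adjusted p = 0.415).

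Chgb, which encodes chromogranin B, a granin of the granule core, followed another order. Its lowest, median and highest plates were 0.124%, 0.137% and 0.171% in Ppy-high wells and 0.0785%, 0.102% and 0.131% in glucagon-only wells. They were 0.400%, 0.472% and 0.512% in somatostatin-only wells, all above the 0.146%, 0.193% and 0.200% of insulin-only wells. Chgb was the only one of the 9 tested genes called higher in somatostatin-only than in insulin-only wells, by 1.19 ± 0.12 on the log2 scale (SE, adjusted p = 1.25e-10). Glucagon-only wells lay below somatostatin-only wells by a log2 fold change of -1.99 ± 0.13 (adjusted p = 1.00e-15) and below insulin-only wells by -0.81 ± 0.12 (adjusted p = 2.44e-07). Ppy-high wells lay below somatostatin-only wells (-1.36 ± 0.13, adjusted p = 1.83e-10) and above glucagon-only wells (0.63 ± 0.13, adjusted p = 0.000957), and were not called against insulin-only wells (-0.17 ± 0.12, adjusted p = 0.26). After each well was thinned to 1000 UMIs, a Chgb UMI was seen in 96.8% of somatostatin-only and 80.0% of insulin-only wells, against 12.8% of wells with markers of non-endocrine cells. Unthinned, these shares were 98.8%, 98.5% and 19.5%, at median depths of 1539, 4305 and 936 UMIs.

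Scg2, the secretogranin that is cut into secretoneurin, had its lowest, median and highest plates at 0.213%, 0.274% and 0.294% in Ppy-high wells. They were 0.118%, 0.130% and 0.183% in glucagon-only wells and 0.397%, 0.535% and 0.585% in somatostatin-only wells. The insulin-only plates lay at 0.628%, 0.691% and 0.989%, and no 2 of the 4 classes overlapped in their plates. All 6 comparisons between classes were called for Scg2. The log2 fold change was -2.41 ± 0.13 for glucagon-only over insulin-only wells (SE, adjusted p = 3.52e-19), -1.34 ± 0.13 for Ppy-high over insulin-only wells (adjusted p = 1.10e-11) and -0.61 ± 0.14 for somatostatin-only over insulin-only wells (adjusted p = 0.000502). Scg3, which encodes secretogranin III, a partner that brings chromogranin A to the granule membrane, averaged 0.120 ± 0.018% in Ppy-high, 0.139 ± 0.022% in glucagon-only, 0.129 ± 0.016% in somatostatin-only and 0.229 ± 0.037% in insulin-only wells (SD over 6, 6, 4 and 6 plates). It was called lower in each of the other classes than in insulin-only wells, with log2 fold changes of -0.76 ± 0.11, -0.70 ± 0.11 and -0.91 ± 0.12 in the same order, and in no comparison among them (adjusted p from 0.271 to 0.866).

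Pcsk1 and Pcsk2 divided the classes in different ways. Pcsk1 was highest in insulin-only wells and lower in somatostatin-only wells, while Pcsk2 was present in all 4 classes and highest in glucagon-only wells. On the insulin-only plates, Pcsk1 made up 0.0499%, 0.0720% and 0.0669% of UMIs on ppx plates 1 to 3, against 0.0450%, 0.0681% and 0.0609% on sham plates 1 to 3. In somatostatin-only wells it was 0.0177% on ppx plate 1, against 0.0157%, 0.0121% and 0.0120% on the sham plates. Every somatostatin-only plate was therefore below every insulin-only plate. Ppy-high wells held 16 Pcsk1 UMIs in all, or 0.00473% (exact Poisson 95% interval 0.00270 to 0.00768%). Glucagon-only wells held 9, or 0.00168% (0.000768 to 0.00319%), against 3112 UMIs and 0.0649% (0.0627 to 0.0672%) in insulin-only wells. These intervals cover counting error only.

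The fitted log2 fold change of Pcsk1 over insulin-only wells was -3.51 ± 0.28 (SE) in Ppy-high wells (adjusted p = 6.01e-14), -5.11 ± 0.29 in glucagon-only wells (adjusted p = 1.85e-18) and -1.99 ± 0.19 in somatostatin-only wells (adjusted p = 9.80e-12). It was lower in glucagon-only than in somatostatin-only wells (-3.13 ± 0.43, adjusted p = 2.51e-07) and in Ppy-high than in somatostatin-only wells (-1.52 ± 0.39, adjusted p = 0.00672), where leaving out sham plate 1 ended the call (-1.27 ± 0.43, adjusted p = 0.0556), as did leaving out the Ppy-high wells above the Gcg threshold (-1.16 ± 0.41, adjusted p = 0.0625). Without those wells Pcsk1 was called higher in Ppy-high than in glucagon-only wells (1.98 ± 0.64, adjusted p = 0.0341), against 1.61 ± 0.63 (adjusted p = 0.126) with them. A Pcsk1 UMI was seen in 13.9% of Ppy-high, 6.25% of glucagon-only, 20.2% of somatostatin-only and 83.7% of insulin-only wells. Wells with markers of endothelial, stromal or macrophage cells and no hormone above its threshold, which should lack the gene, gave 2.30% at a median of 936 UMIs. Thinned to 1000 UMIs, the shares were 5.06%, 1.41%, 13.6% and 44.0% in the 4 classes and 5.13% in the non-endocrine wells, of which 39 of 87 were deep enough. That background rests on 2 wells of ppx plate 2, and the other 5 plates had 0 of 35, which allows a share of up to 8.57%. The Ppy-high and glucagon-only shares lay below that limit and are not read as expression, although unthinned they were above the 2.30%, at deeper medians of 3691 and 3403 UMIs. The somatostatin-only share was above the limit. That limit leaves out ppx plate 2, where 2 of 4 thinned non-endocrine wells had a Pcsk1 UMI. No limit was set over all plates, so the somatostatin-only share is not shown to exceed that background.

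Pcsk2 had its lowest, median and highest plates at 0.356%, 0.388% and 0.439% in Ppy-high wells and at 0.528%, 0.641% and 0.768% in glucagon-only wells. They were 0.339%, 0.384% and 0.391% in somatostatin-only wells and 0.286%, 0.336% and 0.387% in insulin-only wells. All glucagon-only plates lay above all plates of the other 3 classes, which overlapped each other. Glucagon-only wells were higher than insulin-only wells by 0.94 ± 0.12 (log2, SE, adjusted p = 1.74e-08) and than somatostatin-only wells by 0.93 ± 0.14 (adjusted p = 2.41e-06). Somatostatin-only and insulin-only wells were not called apart (0.01 ± 0.14, adjusted p = 0.965). Ppy-high wells were called higher than insulin-only wells (0.41 ± 0.12, adjusted p = 0.00745), a call that ended and turned to -0.053 ± 0.173 (adjusted p = 0.946) when no filter on low counts was used. It also ended without the 15 wells above the Gcg threshold (0.24 ± 0.13, adjusted p = 0.164), where Pcsk2 averaged 0.348 ± 0.048% in Ppy-high and 0.338 ± 0.034% in insulin-only wells (SD, n = 6 plates).

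The Pcsk1 to Pcsk2 balance was taken as the log2 ratio of their UMIs on a plate, with 0.5 added to each. Since capture may differ between the 2 transcripts, the ratio is compared between classes and not read as a ratio of molecules. It averaged -6.69 ± 1.45 in Ppy-high wells, -8.05 ± 1.71 in glucagon-only wells, -4.66 ± 0.16 in somatostatin-only wells and -2.50 ± 0.22 in insulin-only wells (SD over 6, 6, 4 and 6 plates). Summed over plates, there were 84.3 Pcsk2 UMIs for each Pcsk1 UMI in Ppy-high, 399 in glucagon-only, 24.1 in somatostatin-only and 5.40 in insulin-only wells. The ratio was lower than in insulin-only wells of the same plate by -4.19 ± 1.35 in Ppy-high and by -5.55 ± 1.78 in glucagon-only wells (SD, n = 6 plates, lower on all 6, exact sign-flip test, two-sided p = 0.03125 each, the smallest that 6 plates allow). On 2 Ppy-high plates and 1 glucagon-only plate Pcsk1 was at 0, where the added 0.5 sets the value. With 2 added in its place, the differences were -3.20 ± 0.66 and -4.55 ± 1.38 (exact p = 0.03125 each), so their size depends on this constant.

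Somatostatin-only wells differed from insulin-only wells by -2.13 ± 0.34 (n = 4 plates, lower on all 4), and the exact test cannot go below p = 0.125 there, which is the value it gave. With plates of at least 5 somatostatin-only wells admitted, a minimum chosen after seeing the data, the difference was -2.12 ± 0.34 on 6 plates (exact two-sided p = 0.03125). Well by well, the Pcsk1 count exceeded the Pcsk2 count in 0 of 79 Ppy-high, 0 of 144 glucagon-only, 0 of 489 somatostatin-only and 12 of 1037 insulin-only wells.

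**Figure D2:**
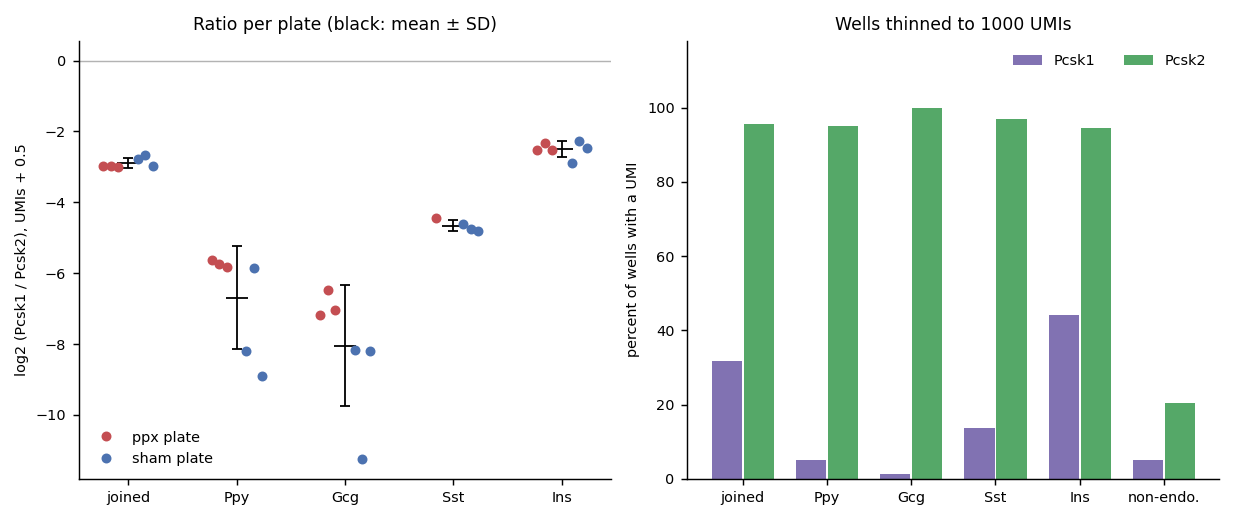
Left, log2 ratio of Pcsk1 to Pcsk2 UMIs (0.5 added to each) on each plate by well class, with the mean and SD in black and plates coloured by operation. Right, percent of wells with a UMI of each gene after thinning to 1000 UMIs, over all plates, with non-endocrine wells last. The insulin-only ratio averages -2.50 and the glucagon-only ratio -8.05, and a Pcsk1 UMI is seen in 44.0% and 1.41% of the thinned wells.

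Scg5 and Pcsk1n encode small proteins that act on the convertases: the Scg5 product is a chaperone that the Pcsk2 enzyme needs to become active, and the Pcsk1n product, proSAAS, inhibits the Pcsk1 enzyme. Both had their highest mean levels in the Ppy-high and glucagon-only classes, where Pcsk1 was lowest. Scg5 averaged 0.175 ± 0.027% in Ppy-high, 0.190 ± 0.024% in glucagon-only, 0.128 ± 0.009% in somatostatin-only and 0.121 ± 0.018% in insulin-only wells (SD over 6, 6, 4 and 6 plates). It was higher than in insulin-only wells by 0.76 ± 0.10 in Ppy-high (log2, SE, adjusted p = 1.51e-07) and 0.72 ± 0.10 in glucagon-only wells (adjusted p = 1.12e-07), and not called in somatostatin-only wells (-0.01 ± 0.12, adjusted p = 0.956). With no filter on low counts, both calls were lost (adjusted p = 0.528 and 0.275).

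Pcsk1n had its lowest, median and highest plates at 0.219%, 0.289% and 0.426% in Ppy-high wells, at 0.388%, 0.458% and 0.597% in glucagon-only wells and at 0.168%, 0.241% and 0.296% in somatostatin-only wells. The insulin-only plates lay at 0.164%, 0.184% and 0.201%, below every Ppy-high and glucagon-only plate. The log2 fold change over insulin-only wells was 0.84 ± 0.13 in Ppy-high (SE, adjusted p = 1.05e-06) and 1.38 ± 0.13 in glucagon-only wells (adjusted p = 2.42e-12), and 0.12 ± 0.14 in somatostatin-only wells (adjusted p = 0.561). Without the filter on low counts the Ppy-high call ended (0.36 ± 0.18, adjusted p = 0.299).

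Cpe averaged 0.282 ± 0.045% in Ppy-high, 0.394 ± 0.056% in glucagon-only, 0.237 ± 0.032% in somatostatin-only and 0.374 ± 0.056% in insulin-only wells. It was called lower in somatostatin-only than in insulin-only wells (-0.76 ± 0.14, adjusted p = 2.43e-05) and higher in glucagon-only than in somatostatin-only wells (0.87 ± 0.14, adjusted p = 6.53e-06). The Ppy-high to somatostatin-only difference (0.55 ± 0.15, adjusted p = 0.00859) ended without sham plate 3 (0.49 ± 0.17, adjusted p = 0.0744) and without the Ppy-high wells above the Gcg threshold (0.39 ± 0.16, adjusted p = 0.124). Against glucagon-only wells, Ppy-high wells were not called (-0.32 ± 0.13, adjusted p = 0.126), but were called lower without those wells (-0.46 ± 0.14, adjusted p = 0.0177). Glucagon-only and insulin-only wells were not called apart (0.11 ± 0.12, adjusted p = 0.49). Vgf, the precursor of several neuroendocrine peptides, was at 0.0214% or less of UMIs on every plate, and reached 0.0082 ± 0.0067% in glucagon-only and 0.0036 ± 0.0016% in insulin-only wells (SD, n = 6).

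Between the classes other than insulin-only, the counts called were 8 of 9 for glucagon-only over somatostatin-only wells against 24.8% of all genes, 6 of 9 for Ppy-high over somatostatin-only wells against 11.3%, and 5 of 9 for Ppy-high over glucagon-only wells against 7.84%. With no filter on low counts, the last 2 counts became 3 of 10 beside 1.17% of 20109 genes and 3 of 10 beside 0.323%. Summed over the 10 genes, the share of UMIs was 2.03 ± 0.14% in Ppy-high, 2.69 ± 0.19% in glucagon-only, 2.49 ± 0.31% in somatostatin-only and 3.48 ± 0.37% in insulin-only wells (SD over 6, 6, 4 and 6 plates). These sums depend on the share taken by 8 hormone genes, Ins1, Ins2, Gcg, Sst, Ppy, Pyy, Iapp and Ghrl. That share averaged 40.3% in Ppy-high, 31.3% in glucagon-only, 20.1% in somatostatin-only and 28.7% in insulin-only wells. Out of the other UMIs, Chga averaged 0.591 ± 0.189% in Ppy-high and 0.483 ± 0.127% in somatostatin-only wells. Out of all UMIs, the order was the other way. Of the sum of the 10 genes, Chga made up 17.1 ± 4.3% in Ppy-high, 22.5 ± 3.2% in glucagon-only, 15.4 ± 3.1% in somatostatin-only and 35.1 ± 2.9% in insulin-only wells. Pcsk2 made up 19.5 ± 2.4%, 23.5 ± 2.1%, 15.3 ± 2.3% and 9.75 ± 0.71% in the same order. Which of them was higher in Ppy-high wells differed between plates. Chga averaged 0.267% on ppx and 0.438% on sham plates, and Pcsk2 0.405% on ppx and 0.383% on sham plates. On sham plate 3 Pcsk2 was above Chga, as on the ppx plates, and neither gene was called between operations.

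**Figure D3:**
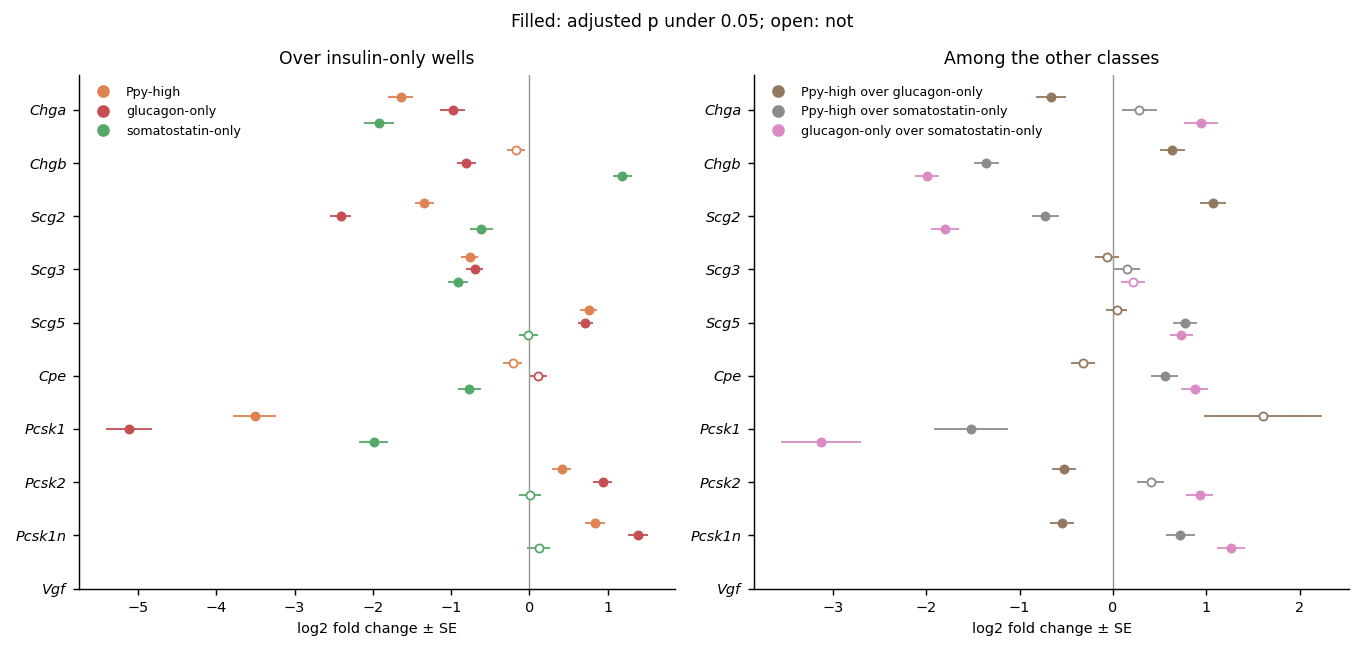
Log2 fold changes (horizontal axis, points, with SE) of 9 genes between well classes, over insulin-only wells on the left and among the other classes on the right; filled points have an adjusted p under 0.05, and Vgf, below the filter on low counts, has no point. Chgb is the gene with a filled point on the higher side in somatostatin-only wells (1.19), and Pcsk1 has the lowest values, down to -5.11 in glucagon-only wells.

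Other genes of the pathway were read from 3 lists. Of 20 other processing enzymes, 7 passed the filter on low counts, and against insulin-only wells 2 were called higher and 1 lower in Ppy-high wells, and 1 higher and 1 lower in both glucagon-only and somatostatin-only wells. Bace2, a protease of beta cells, was lower in all 3, with log2 fold changes of -3.81 ± 0.29 in Ppy-high, -4.57 ± 0.26 in glucagon-only and -5.27 ± 0.29 in somatostatin-only wells (SE). Pam, the enzyme that amidates peptides, was higher in all 3, by 0.39 ± 0.12, 0.86 ± 0.11 and 0.35 ± 0.12, and the lysosomal protease gene Ctsb was higher in Ppy-high wells (0.84 ± 0.22). The list's median log2 fold changes were 0.07, 0.06 and -0.05 in the same order, beside -0.04, -0.08 and 0.01 over all genes tested.

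Of 20 further granule genes, 16 were tested, and 2 were called higher and 7 lower in Ppy-high, 2 higher and 9 lower in glucagon-only, and 3 higher and 7 lower in somatostatin-only wells than in insulin-only wells. Their medians were -0.45, -0.49 and -0.50. Sytl4, a granule tethering protein, was lower by -3.90 ± 0.46, -4.01 ± 0.37 and -4.13 ± 0.37 in the same order. Slc30a8, the zinc transporter of the insulin granule, was lower by -2.80 ± 0.22 in Ppy-high and -4.55 ± 0.23 in somatostatin-only wells. Glucagon-only wells held Slc30a8 at 0.055 ± 0.011% of UMIs, near the 0.072 ± 0.012% of insulin-only wells (SD, n = 6 plates). Tmem27, a membrane protein that Bace2 cleaves in mouse beta cells, was higher by 1.82 ± 0.11 in Ppy-high and 1.78 ± 0.11 in glucagon-only wells, and Resp18, a protein of dense-core granules, by 1.41 ± 0.12 in glucagon-only and 0.97 ± 0.14 in somatostatin-only wells.

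Of 18 peptide precursors, 10 were tested, and 3 were called higher and 5 lower in each of the 3 classes than in insulin-only wells, a count that includes the hormones that define the classes. The medians were -2.06 in Ppy-high, -2.71 in glucagon-only and -0.74 in somatostatin-only wells. Of those that did not define a class, Ucn3, a beta cell peptide, was lower by -5.22 ± 0.30, -5.13 ± 0.24 and -5.09 ± 0.24, Pyy was higher by 6.01 ± 0.58 in Ppy-high and 4.23 ± 0.54 in somatostatin-only wells, and Iapp, which encodes amylin, was lower by -4.88 ± 0.27 in glucagon-only wells.

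By Pearson correlation of log2 (CPM + 1) over 22 plate sums of the 4 classes, the genes most like Pcsk1 among 1799 were Canx (r = 0.86), Papss2 (0.86), Chic1 (0.83), Atp6v1b2 (0.76) and Serinc1 (0.75). Those most like Pcsk2 were Actb (0.90), Cryba2 (0.88), Rack1 (0.87), Rpl8 (0.86) and Rpl32 (0.86). Within the set, Pcsk2 was most like Pcsk1n (0.82) and Scg5 (0.69), and Pcsk1 most like Scg2 (0.74) and Scg3 (0.69). Points of the same plate share a library and points of the same class share its hormone content, so these values are descriptions.

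The joined wells tested what the genes do where an insulin and a somatostatin profile stand in 1 well. No member was called between joined wells and in silico pairs, each made by adding the counts of an insulin-only well to those of a somatostatin-only well from its own plate, and 0.0% of the 1052 genes tested were. At an unadjusted p under 0.05, edgeR gave 38 genes, none of them a member, and DESeq2 called 0 genes. Chgb averaged 0.290 ± 0.031% in joined wells and 0.2505 ± 0.0329% in pairs (log2 fold change 0.21 ± 0.12, adjusted p = 0.999). Pcsk1n averaged 0.212 ± 0.055% in joined wells and 0.176 ± 0.047% in pairs (0.20 ± 0.13), and the other 7 members tested lay between -0.11 and 0.04. Pcsk1 stood at 0.0479 ± 0.0070% in joined wells and 0.0514 ± 0.0133% in pairs (SD, n = 6 plates; -0.02 ± 0.14).

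The Pcsk1 to Pcsk2 ratio of joined wells averaged -2.89 ± 0.14, above every somatostatin-only plate. Against insulin-only wells of the same plate it was lower by -0.40 ± 0.26, on 5 of 6 plates (exact sign-flip test, two-sided p = 0.0625), and against somatostatin-only wells it was higher by 1.81 ± 0.25 on all 4 plates (exact p = 0.125, the smallest for 4). Chgb in joined wells lay below every somatostatin-only plate and above every insulin-only plate, with plates from 0.244 to 0.337%.

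Between operations, no member was called in any of the 4 classes. In insulin-only wells 0 of 10 members were called, beside 0.23% of 8268 genes, and in somatostatin-only wells 0 of 9, beside 0.0802% of 4985. In glucagon-only wells it was 0 of 8, beside 0.188% of 532, and in Ppy-high wells 0 of 8, beside 0.0% of 486. At an unadjusted p under 0.05, edgeR gave 2, 0, 0 and 2 members in these classes in that order, and DESeq2 called 0 members in each. The shares of all genes above are for adjusted p. The share at the unadjusted threshold is not given here, so these counts are not read as a result about the members. A p that misses the threshold does not show equal levels. In insulin-only wells the SE of a member's log2 fold change was between 0.14 and 0.15 for the 9 members other than Vgf. Data simulated for this comparison gave back 31% of 2-fold and 87% of 4-fold changes. The changed genes were drawn from all that had more than a few expected UMIs on the smallest plate, sham plate 1. Pcsk1 and Pcsk2 had 117 and 862 UMIs there, so the simulated shares are not those of the convertases or of members at like counts.

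Scg2 in insulin-only wells was 0.657%, 0.946% and 0.989% of UMIs on ppx plates 1 to 3, against 0.680%, 0.703% and 0.628% on the sham plates. Both tomato-negative ppx plates were high and the groups overlapped through ppx plate 1. The log2 fold change was 0.32 ± 0.14 (SE, adjusted p = 0.5), and without both tomato-positive plates it was 0.46 ± 0.10 (adjusted p = 0.0474). The positive plates alone, 1 for each operation, gave no test.

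Vgf in insulin-only wells was 0.0045%, 0.0061% and 0.0038% on the ppx plates, against 0.0027%, 0.0029% and 0.0015% on the sham plates. It was the only member whose plates did not overlap in this class, among genes with at least 30 UMIs, of which 7.14% stood wholly higher on the ppx plates. These were 14, 73 and 47 UMIs on the ppx plates, against 7, 25 and 14 on the sham plates. The log2 fold change was 1.05 ± 0.29 (adjusted p = 0.197), and without the filter on low counts it was 1.09 ± 0.28 (adjusted p = 0.037).

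The convertases were close between operations in insulin-only wells. The log2 fold change was 0.07 ± 0.15 for Pcsk1 and 0.01 ± 0.14 for Pcsk2 (adjusted p = 0.936 and 0.997). The Pcsk1 to Pcsk2 ratio was -2.52, -2.32 and -2.53 on ppx plates 1 to 3, against -2.88, -2.26 and -2.48 on the sham plates, a difference of 0.08 (exact permutation test, two-sided p = 0.9, where 3 plates against 3 cannot go below 0.1). In somatostatin-only wells, the ratio was -4.45 on the ppx plate, against -4.62, -4.75 and -4.81 on the sham plates (difference 0.27, exact p = 0.25, the smallest for 1 plate against 3).

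In Ppy-high wells, Chga was 0.271%, 0.307% and 0.222% on the ppx plates, against 0.483%, 0.487% and 0.344% on the sham plates, so that all ppx plates were lower. Pcsk1n was 0.219%, 0.227% and 0.260% on the ppx plates, against 0.336%, 0.426% and 0.319%, again lower on all of them. Scg5 was 0.181%, 0.212% and 0.196% on the ppx plates, against 0.152%, 0.139% and 0.168%, and was higher on all. Among genes with at least 30 UMIs in this class, 4.88% stood wholly lower and 4.52% wholly higher on the ppx plates. None was called: the log2 fold changes were -0.72 ± 0.23 for Chga, -0.61 ± 0.24 for Pcsk1n and 0.36 ± 0.21 for Scg5 (SE, adjusted p = 0.68, 0.68 and 0.805). The ppx plates had 11, 26 and 16 such wells and the sham plates 8, 6 and 12. Gcg, a hormone of alpha cells, made up 6.96%, 4.12% and 1.49% of UMIs in these wells on the ppx plates, against 6.02%, 0.655% and 3.39% on the sham plates. The 6 beta markers summed to 0.238%, 0.438% and 0.210% on the ppx plates, against 0.853%, 0.855% and 0.205% on the sham plates, and were thus highest on the 2 plates with the highest Chga. Iapp alone averaged 0.442 ± 0.307% (SD, n = 6 plates), where the mean of these sums was 0.467%. Ins1 and Ins2 together did not follow the same order. They made up 0.317%, 0.283% and 0.229% on the ppx plates, against 0.320%, 0.553% and 0.484% on the sham plates. The beta cell transcripts Ins2 (-1.18 ± 0.46) and Iapp (-1.16 ± 0.45) were not called between operations (adjusted p = 0.68 each). The part of these cells in the Chga values was not tested. In wells without Gcg above its threshold, Chga was 0.185%, 0.293% and 0.177% on the ppx plates, against 0.467%, 0.487% and 0.291% on the sham plates, so that 1 sham plate then overlapped. Pcsk1n was 0.191%, 0.225% and 0.236% on the ppx plates in those wells, against 0.310%, 0.426% and 0.241% on the sham plates, with no overlap. Scg5 was 0.175%, 0.211% and 0.188% on the ppx plates, against 0.121%, 0.139% and 0.164%, also with none. The fold changes there were -0.90 ± 0.28 for Chga, -0.55 ± 0.26 for Pcsk1n and 0.46 ± 0.23 for Scg5, and none was called (adjusted p from 0.702 to 0.791).

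Glucagon-only wells numbered 5, 13 and 7 on ppx plates 1 to 3, against 17, 48 and 54 on the sham plates. In these wells, Pcsk1n was 0.420%, 0.423% and 0.388% on the ppx plates, against 0.493%, 0.527% and 0.597% on the sham plates. It was the only member there whose plates did not overlap, and 10.1% of genes with at least 30 UMIs stood wholly lower on the ppx plates (log2 fold change -0.29 ± 0.15, adjusted p = 0.825). The tests of whether the effect of the operation differed from that in insulin-only wells called 0 of 10 members for the somatostatin-only, 0 of 10 for the glucagon-only and 0 of 9 for the Ppy-high class. They called 0.109%, 0.0249% and 0.033% of all genes in that order, so a count of 0 says little of the members.

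**Figure D4:**
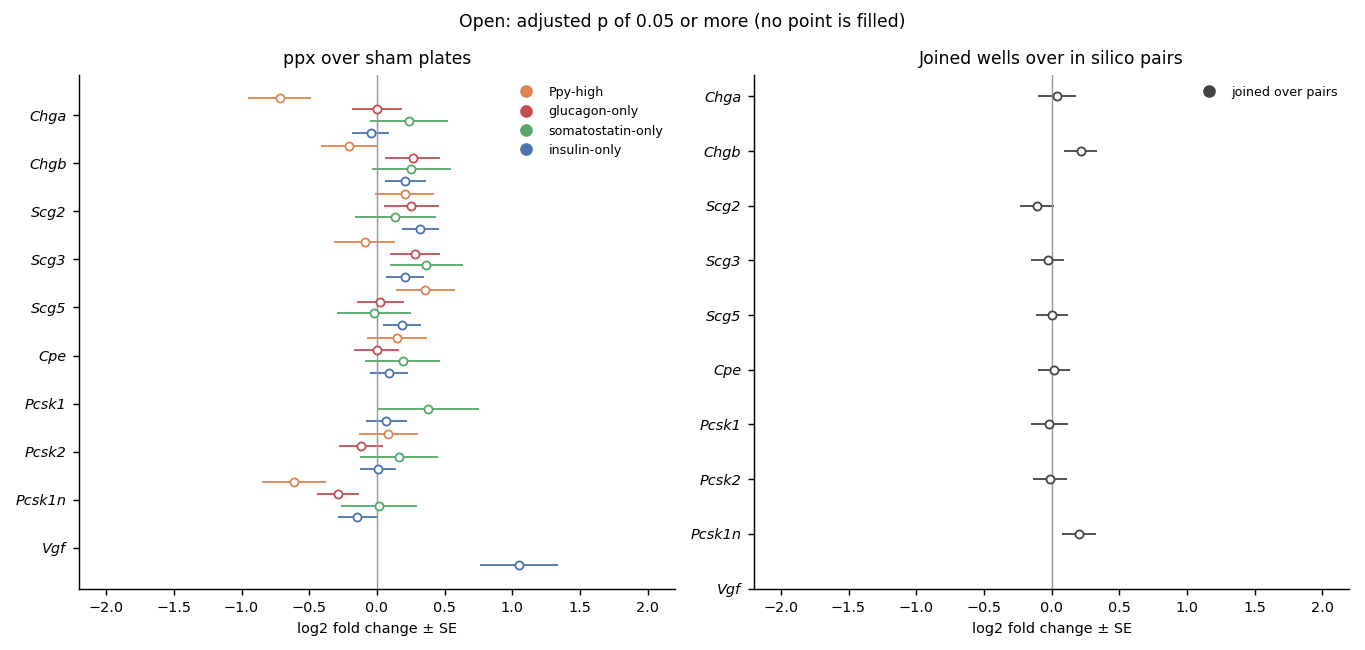
Log2 fold changes (horizontal axis, points, with SE) of ppx over sham plates in 4 well classes on the left and of joined wells over in silico pairs on the right, for the genes that passed the filter on low counts. All points are open, since none has an adjusted p under 0.05, and Vgf in insulin-only wells has the highest value (1.05).

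On the lists, none of 16 processing enzymes or 20 granule genes tested in insulin-only wells was called between operations, with median log2 fold changes of 0.05 and -0.05 beside -0.01 over all genes. The 3 processing enzymes with the smallest p were Qpctl (0.57 ± 0.23), Cpd (-0.45 ± 0.21) and Pcsk6 (-0.66 ± 0.34), with adjusted p from 0.485 to 0.618. Nucb2, the precursor of nesfatin, had the smallest p of the granule genes (0.53 ± 0.14, adjusted p = 0.193). Of 10 peptide precursors, Gcg was called lower on ppx plates in insulin-only wells (-1.65 ± 0.27, adjusted p = 0.0037), a glucagon transcript in wells selected to lie below its threshold. That call ended without ppx plate 2 (-1.69 ± 0.34, adjusted p = 0.0556), without sham plate 2 (-1.48 ± 0.32, adjusted p = 0.127) and in DESeq2 (-1.62 ± 0.56, adjusted p = 0.0943). Ppy was called higher in glucagon-only wells (1.82 ± 0.30, adjusted p = 0.00765), but not with tomato status as a term (1.67 ± 0.39, adjusted p = 0.118) or with other hormone thresholds (1.23 ± 0.51, adjusted p = 0.892). Ghrl was called higher in somatostatin-only wells (2.49 ± 0.33, adjusted p = 1.56e-10, 1 ppx plate against 3 sham plates), but not without sham plate 3 (2.34 ± 0.75, adjusted p = 0.958) or in DESeq2 (3.47 ± 4.80, adjusted p = 1.00), and it did not pass the filter when plates with at least 5 somatostatin-only wells were admitted.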

How the data were processed

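Counts of UMIs per gene and well were deposited by the authors as 6 plate tables with no normalization. Per the submitters' processing notes, HISAT 0.1.6 and the mm10 build were used; the UMI counter and the annotation it used are not given in these sources. The 10 genes, the lists and the classes were chosen with earlier results of these data known.

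Wells with at least 500 UMIs and at most 20% mitochondrial UMIs were kept. Each hormone's threshold was the geometric mean of its median share in wells where it led and its highest median share in wells led by another hormone, ERCC spike-ins were left out, and no doublets were removed, since joined wells form a class of their own. Class counts were summed per plate, with at least 10 wells for insulin-only and somatostatin-only wells and 5 for other classes. Intervals are exact Poisson intervals at 95%. The sums were tested with edgeR 4.0.16 (quasi-likelihood, TMM, low counts filtered, Benjamini-Hochberg adjustment over all genes tested) in R 4.3.3 with limma 3.58.1, and DESeq2 1.42.0 was an alternative. The plate was a block in comparisons between classes, of joined wells with pairs, and of operation effects between classes. Comparisons of the operation within a class had no block unless stated. Adjusted p-values in the text are from edgeR unless stated otherwise, and SE is that of the log2 fold change. Ratios were compared with exact sign-flip or permutation tests in Python 3.11.15 with scipy 1.17.1. The edgeR step was tested on simulated data, where 81% of 2-fold and 100% of 4-fold changes were recovered between glucagon-only and insulin-only wells. Simulated counts, here and for the operation, came from a pooled profile with a fixed dispersion and no plate effect, and 100 genes changed at each size. Between these classes 48.4% of the 1799 genes tested were called, so the recovery there may differ.

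All members were named. Of each list of other genes, up to 6 called genes with the largest fold change in a comparison, or else the 3 with the smallest p, could be named, and 5 genes most like each convertase. The non-endocrine wells, the minimum of 5 somatostatin-only wells, the removal of Ppy-high wells above the Gcg threshold and the count of plates that do not overlap, over genes with at least 30 UMIs, were chosen after seeing the data. Alternatives were other thresholds, depth minimums, pseudocounts, no filter, DESeq2, leaving out plates or hormone genes, tomato status as a term and a replicate block.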

Additional observations from a re-analysis of the deposited data

Results flagged for a closer look

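Of 55 groups of 4 to 6 plates, 4 had a plate far from the others, where chance alone gives about 1 in 20 groups. Chga in somatostatin-only wells was lowest on sham plate 3, at 0.220% of UMIs (73 UMIs), beside 0.432 to 0.471% on the other plates. Vgf was highest on ppx plate 1 in glucagon-only wells, at 0.0214% (8 UMIs), beside 0.00332 to 0.00757% on the others. In joined wells it was highest on ppx plate 2, at 0.0155% (5 UMIs), beside 0 to 0.00271%. The Pcsk1 to Pcsk2 log2 ratio in glucagon-only wells was lowest on sham plate 2, at -11.24, where Pcsk1 had 0 UMIs, beside -8.20 to -6.46 on the other plates.

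A signal also appeared in wells that no comparison used. Of 115 wells with no hormone above its threshold, 7 held the 10 genes at 2% of UMIs or more, beside 0.249 ± 0.115% in non-endocrine wells (SD, n = 4 plates). In 3 of these wells the ghrelin transcript Ghrl led: the 10 genes summed to 2.07% and 3.14% in 2 wells of ppx plate 1, with Ghrl at 39.8% and 34.2%, and to 2.94% in a well of sham plate 1, with Ghrl at 32.8%. In that order, these 3 wells held 7, 2 and 4 Pcsk1 UMIs and 4 Pcsk2 UMIs each. In 2 wells of sham plate 3, the sums were 10.2% and 11.4%, with Chga at 68 and 107 UMIs and Chgb at 105 and 112 UMIs, of 1921 and 2219 in all. Chgb thus made up 5.47% and 5.05% of UMIs there, while its highest share in 2000 wells with a hormone above its threshold was 1.61%. The remaining wells had 3.51% on ppx plate 3 and 3.55% on sham plate 3, the last with Ppy at 5.47%. What these wells contain was not tested.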

How the results depend on the processing

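Between classes, 675 of 702 values of single members under other settings kept their direction and side of the threshold, 15 lost the call, 11 gained one and 1 reversed, Pcsk2 in Ppy-high over insulin-only wells without the filter on low counts (-0.053). For the operation, 511 of 513 did and 2 gained a call. All 117 for joined wells over pairs did. Without the filter, members called were 3 for Ppy-high over somatostatin-only wells, 3 for Ppy-high over glucagon-only wells and 1 for the operation in insulin-only wells. All genes called were then 1632 for glucagon-only and 1178 for Ppy-high over insulin-only wells, 65 for Ppy-high over glucagon-only wells, 1 for joined wells, and 59, 2, 8 and 3 for the operation in insulin-only, somatostatin-only, glucagon-only and Ppy-high wells. With each threshold at 0.25 of the hormone's median in wells where it led, the counts were 1 for joined wells and 12, 2 and 0 for the operation in insulin-only, somatostatin-only and glucagon-only wells. Without both tomato-positive plates, 1 member and 41 genes were called in insulin-only wells, 5 genes in glucagon-only and 2 in Ppy-high wells, and the ratio difference between operations in insulin-only wells became -0.055. The operation gave 0 genes in somatostatin-only wells with DESeq2, 0 in glucagon-only wells without hormone genes and 3 in Ppy-high wells with a tomato term. With at least 5 somatostatin-only wells a plate, the operation gave 0 genes there and its interaction with insulin-only wells 0, and the ratio differences were -2.12 for somatostatin-only minus insulin-only, -3.43 for glucagon-only minus somatostatin-only and 1.72 for joined minus somatostatin-only wells. The cause of these changes was not tested.

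Leaving out 1 plate at a time, genes called for joined wells ranged from 0 to 1, and for the operation from 5 to 41 in insulin-only, 0 to 4 in somatostatin-only, 1 to 5 in glucagon-only and 0 to 2 in Ppy-high wells. The lowest in insulin-only wells was without sham plate 3 and the highest without ppx plate 1. The ratio difference ranged from -5.83 to -4.86 for glucagon-only and -4.41 to -3.75 for Ppy-high minus insulin-only wells, where 5 plates allow no exact p below 0.0625, and from -0.087 (without sham plate 1) to 0.22 for ppx minus sham in insulin-only wells. With the replicate number as a block, 28 genes and 0 members were called in insulin-only wells, against 19 genes without it, and the ratio difference was 0.08 (exact p = 1). Same-numbered plates correlated at 0.07, 0.03 and 0.05 in their deviations in insulin-only wells, where ppx plate 2 correlated best with sham plate 3. In glucagon-only wells the values were 0.04, 0.11 and 0.05, and in Ppy-high wells 0.25, 0.06 and 0.13. In these 2 classes every plate correlated best with its own number. Whether the numbers pair the plates was not tested. Pcsk1 rested on 16 UMIs in Ppy-high and 9 in glucagon-only wells.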

Other observations

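Wells with 2 hormones other than insulin held the same genes at levels that belong to no comparison above. In 45 wells high in somatostatin and glucagon, on the 3 plates with at least 5 of them, Chgb averaged 0.244 ± 0.012%, Pcsk2 0.563 ± 0.023%, Pcsk1n 0.386 ± 0.062% and Pcsk1 0.0072 ± 0.0025% of UMIs (SD, n = 3 plates). In 42 wells high in somatostatin and Ppy, also on 3 plates, Chgb averaged 0.321 ± 0.016%, Pcsk2 0.390 ± 0.059%, Pcsk1n 0.259 ± 0.049% and Pcsk1 0.0180 ± 0.0051%. The 10 genes summed to 2.58 ± 0.07% and 2.50 ± 0.20% of UMIs in these wells. The Pcsk1 count exceeded the Pcsk2 count in 0 of all 53 and 0 of all 46 such wells.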
